A study of Mus musculus with 2 samples.

Results

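Gzma, Gzmb, Gzmc, Gzmk, Prf1, Nkg7, Fasl and Ifng, genes of the cytotoxic granule and of killing by lymphocytes, were taken by name and followed through gated cells of a mouse lung. The set holds 8 of the 55416 genes counted, and all 8 were present in both libraries of the study. Single-cell 5' RNA sequencing had been run on cells drawn with CD45 magnetic beads from lung and from gastrocnemius muscle, with 1 library per tissue. Both libraries carry the genotype label CAC mouse model and the title word TB mice, and neither carries a treatment, an age or a number of mice. Both short names are left as given. The design text of the series speaks of a tumour-bearing model. With 1 library per tissue there was no replicate, so no p-value is given, and an interval in brackets is an exact 95% interval that holds counting error only.

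A cytotoxic T cell or natural killer (NK) cell kills by releasing granules at the contact with its target. Perforin, encoded by Prf1, makes pores, and granzymes are serine proteases that enter through them. Fas ligand, encoded by Fasl, kills through the death receptor Fas without granules, and interferon gamma, encoded by Ifng, is the secreted cytokine of the same cells. NK cells and effector CD8 T cells are the textbook sources of these products in lung.

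Of 8481 lung barcodes, 8194 had at least 200 genes and at most 10% of their UMIs (unique molecular identifiers, 1 per captured molecule) from mitochondrial genes. Gates on single UMIs gave 185 CD8 T barcodes (Cd8a and Cd3e), 89 NK barcodes (Ncr1 or Klrb1c without Cd3e), 128 CD4 T barcodes (Cd4 and Cd3e without Cd8a or Foxp3) and 130 regulatory T barcodes (Foxp3 and Cd3e without Cd8a). Their medians were 4493, 3019, 3616 and 3777 UMIs per barcode. Another 296 T barcodes had Cd3e without Cd4, Cd8a or Foxp3. CD8 T barcodes held all 6 T cell markers at 2479.9 CPM in sum and both CD8 markers at 1099 CPM. The NK gate held all 6 of its markers at 1399 CPM in sum (CPM is the count of a gene divided by all UMIs of the class, scaled up as usual), with Cd8a, Cd8b1, Cd4 and Foxp3 at 0. All of these gates also held myeloid markers. Mononuclear phagocyte markers stood at 3225 CPM in NK, 3211 CPM in other T, 2203 CPM in CD8 T, 1560.3 CPM in CD4 T and 1965 CPM in regulatory T barcodes. The myeloid gene Lyz2 alone gave 2461 CPM of the NK sum, and was found in 70.8% of NK and 71.4% of lung B barcodes. Neutrophil markers went the other way, at 1319 CPM in NK against 2247 CPM in CD8 T, 5376 CPM in CD4 T and 2197 CPM in regulatory T barcodes. Barcodes that also passed a B cell, neutrophil or phagocyte limit numbered 34 of 185 CD8 T, 21 of 89 NK, 31 of 128 CD4 T and 29 of 130 regulatory T barcodes. In the CD8 T gate 20 barcodes had a Cd4 UMI and 11 a Foxp3 UMI. The libraries shared 24 barcode sequences among those kept.

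The promoters of 3 granzyme genes are shown because these genes divided the lymphocytes differently. Gzma was high in NK and CD8 T barcodes, its neighbour Gzmk had 43 of its 64 lung UMIs in CD8 T and 1 in NK barcodes, and Gzmb was also present in regulatory T barcodes. Gzma and Gzmk lie next to each other on chromosome 13 with 1 non-coding gene between them. Gzmb lies in the granzyme cluster of chromosome 14 beside Gzmc. Each line gives the 250 bases before the RefSeq transcription start, 5′ to 3′ on the gene's strand, build GRCm38.p6, whereas the counts were made on GRCm39. Capitals mark 3 short motifs searched on both strands, TCACAC (a core of T-box sites), TGTGGT (a core of Runx sites) and TGANTCA (an AP-1 site), which do not overlap each other here.
Gzma, chr13:113100982-113101231, minus strand: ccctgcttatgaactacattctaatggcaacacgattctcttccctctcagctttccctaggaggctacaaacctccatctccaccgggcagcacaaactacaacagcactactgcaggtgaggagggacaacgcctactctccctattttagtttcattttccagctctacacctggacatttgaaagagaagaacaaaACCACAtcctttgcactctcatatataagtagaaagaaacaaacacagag
Gzmk, chr13:113180966-113181215, minus strand: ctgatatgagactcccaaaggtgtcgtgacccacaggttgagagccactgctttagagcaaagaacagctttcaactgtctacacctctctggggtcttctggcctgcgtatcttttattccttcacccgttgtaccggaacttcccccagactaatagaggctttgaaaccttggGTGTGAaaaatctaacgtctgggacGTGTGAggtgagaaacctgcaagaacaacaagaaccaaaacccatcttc
Gzmb, chr14:56262335-56262584, minus strand: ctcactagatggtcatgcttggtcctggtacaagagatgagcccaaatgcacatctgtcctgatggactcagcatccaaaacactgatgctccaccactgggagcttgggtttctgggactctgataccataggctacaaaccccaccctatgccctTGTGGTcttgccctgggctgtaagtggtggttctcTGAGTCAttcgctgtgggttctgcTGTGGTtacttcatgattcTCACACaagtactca
The Gzmb promoter held 1 TCACAC, 2 TGTGGT and 1 TGANTCA. The Gzma promoter held 1 TGTGGT, read on the other strand as ACCACA, and no match to the other motifs. The Gzmk promoter held 2 matches to TCACAC, both read as GTGTGA, and no match to the other motifs. Of all 8 promoters 3 held TCACAC, 5 held TGTGGT and 1 held TGANTCA. Over 32851 mouse promoters of the same length the shares were 12.3%, 14% and 6.75%. A match describes these letters and no binding was measured.

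The 8 genes together stood highest in the NK gate and next in the CD8 T gate. NK barcodes held 1978 of their UMIs, or 4420.4 CPM (4228 to 4619.6), and CD8 T barcodes held 3071, or 2839.6 CPM (2740.1 to 2942). CD4 T barcodes stood at 222 CPM (187 to 261) and regulatory T barcodes at 122 CPM (97.2 to 151). Lung B cells, which should lack these genes, stood at 8.38 CPM (5.31 to 12.6) with a median of 2342 UMIs. The CD8 T and NK gates, 2.26% and 1.09% of kept barcodes, thus held 50.5% and 32.5% of all UMIs of these genes in the lung. The sum is mostly Gzma and Nkg7, which gave 89% of it in CD8 T and 87.7% in NK barcodes. Without these the order of those classes was the same, 543 CPM (477 to 616) in NK and 312 CPM (279 to 347) in CD8 T barcodes. Leaving out the barcodes with B cell or myeloid markers moved the NK sum to 7242 CPM and the CD8 T sum to 4021 CPM.

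**Figure D1:**
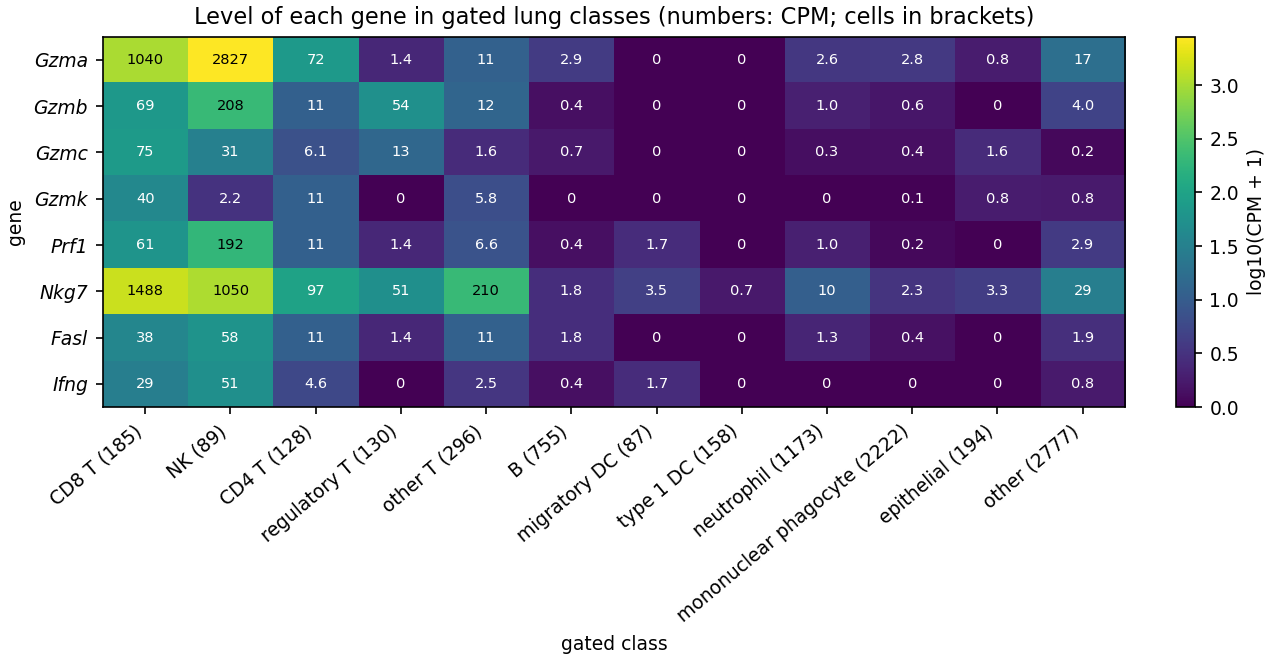
Level of each gene (rows) in each gated lung class (columns, number of barcodes in brackets), as CPM printed in the cells and as log10(CPM + 1) in colour. High values sit in the CD8 T and NK columns, for example Gzma at 1040.2 and 2827 CPM, while B, dendritic (DC), myeloid and epithelial columns stay under 11 CPM for each gene.

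Granzyme A, encoded by Gzma, is a tryptase-like granule protease. Its level was 2827 CPM (2673 to 2987) in NK, 1040.2 CPM (980.3 to 1103) in CD8 T, 71.5 CPM (52.5 to 95) in CD4 T and 1.45 CPM (0.0367 to 8.08) in regulatory T barcodes. Behind these levels lay opposite distributions over cells. In the NK gate 57 of 89 barcodes (64%, 53.2 to 73.9) had a Gzma UMI, with a median of 14 UMIs in those. In the CD8 T gate only 19 of 185 (10.3%, 6.3 to 15.6) did, with a median of 41 and a highest count of 215. The 6 richest CD8 T barcodes carried 75.8% of the class's Gzma UMIs, against 37% in the NK gate. In CD4 T barcodes 46 of 47 Gzma UMIs came from 1 barcode, which had no UMI of the other 7 genes. The CD4 T level of Gzma therefore describes that barcode, and was 1.54 CPM without it. After thinning to 1000 UMIs per barcode, Gzma was found in 58% of 88 NK (47 to 68.4) and 7.57% of 185 CD8 T barcodes (4.2 to 12.4), beside 0.417% of 720 B cells.

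Granzyme B, encoded by Gzmb, cleaves after aspartate and activates caspases. It stood at 208 CPM (168 to 255) in NK, 69.3 CPM (54.5 to 86.9) in CD8 T, 53.7 CPM (37.8 to 74) in regulatory T and 10.6 CPM (4.28 to 21.9) in CD4 T barcodes. The CD8 T and regulatory T levels did not differ beyond their intervals, while NK was above both. A Gzmb UMI was found in 33 of 89 NK barcodes (37.1%), 15 of 185 CD8 T barcodes (8.11%), 9 of 130 regulatory T barcodes (6.92%) and 5 of 128 CD4 T barcodes (3.91%). In lung B cells it was found in 1 of 755 (0.132%). Thinned to 1000 UMIs, the shares were 19.3% of 88 NK, 4.32% of 185 CD8 T, 3.17% of 126 regulatory T (0.872 to 7.93) and 0.8% of 125 CD4 T barcodes (0.0203 to 4.38). The regulatory T and CD4 T shares overlap.

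Granzyme K, encoded by Gzmk, is a tryptase-like relative of granzyme A. Its level was higher in CD8 T than in NK barcodes. CD8 T barcodes held 43 of the lung's 64 Gzmk UMIs, 39.8 CPM (28.8 to 53.6), spread over 20 of 185 barcodes with at most 7 each. NK barcodes held 1 UMI, 2.23 CPM (0.0566 to 12.5), and regulatory T and B barcodes none, which allows up to 4.35 and 1.09 CPM (3 counts of the class total). CD4 T barcodes stood at 10.6 CPM (4.28 to 21.9) and the other T barcodes at 5.78 CPM (2.32 to 11.9). Thinned to 1000 UMIs, Gzmk was found in 3.78% of 185 CD8 T (1.53 to 7.64) and none of 88 NK barcodes (0 to 4.11), so the shares overlap.

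Granzyme C, encoded by Gzmc, belongs to the rodent granzyme cluster and has close copies in Gzmd to Gzmg and Gzmn, so reads could be split among them and its values are uncertain. CD8 T barcodes held 81 UMIs, 74.9 CPM (59.5 to 93.1), all of them in 6 barcodes. Those held 27, 22, 18, 11, 2 and 1 Gzmc UMIs. The richest also had 65 Gzma, 22 Gzmb and 12 Prf1 UMIs, the second had none of Gzma or Gzmb, and the third had 164 Gzma UMIs. NK barcodes held 14 Gzmc UMIs, 12 in 1 barcode, at 31.3 CPM (17.1 to 52.5), and regulatory T barcodes held 9 UMIs, 7 in 1 barcode. These levels thus rest on a handful of barcodes.

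Perforin (Prf1) stood at 192 CPM (154 to 237) in NK, 61 CPM (47.2 to 77.6) in CD8 T, 10.6 CPM (4.28 to 21.9) in CD4 T and 1.45 CPM (0.0367 to 8.08) in regulatory T barcodes. It was found in 33 of 89 NK barcodes (37.1%) and in 38 of 185 CD8 T barcodes (20.5%), mostly as 1 UMI in the latter. In regulatory T barcodes it was found in 1 of 130, so the Gzmb of that class came with almost no perforin. None of the 9 Gzmb-positive regulatory T barcodes had a Prf1 UMI. Thinned to 1000 UMIs the shares were 23.9% of 88 NK (15.4 to 34.1) and 7.03% of 185 CD8 T barcodes (3.79 to 11.7).

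Nkg7 encodes a granule membrane protein needed for full release of granules, and it was the most widely detected of the 8 in T cells. Its level was 1488 CPM (1416 to 1562) in CD8 T, 1050.3 CPM (958 to 1149.7) in NK, 209.8 CPM (185 to 237) in other T, 97.3 CPM (75 to 124) in CD4 T and 50.8 CPM (35.4 to 70.6) in regulatory T barcodes. Neighbours in that order had intervals that did not overlap, the closest being CD4 T and regulatory T. An Nkg7 UMI was found in 154 of 185 CD8 T barcodes (83.2%, 77.1 to 88.3) and 64 of 89 NK barcodes (71.9%, 61.4 to 80.9). Thinned to 1000 UMIs, the shares were alike, 62.2% (54.8 to 69.2) and 60.2% (49.2 to 70.5), beside 0.139% of 720 B cells. The 6 richest barcodes carried 22.1% of its CD8 T UMIs, far from the 75.8% of Gzma. Most CD8 T barcodes therefore had Nkg7 and no granzyme. Nkg7, Gzmc and Gzmk were the members of the 8 with a higher level in CD8 T than in NK barcodes.

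Fas ligand (Fasl) stood at 58.1 CPM (38 to 85.1) in NK and 37.9 CPM (27.2 to 51.4) in CD8 T barcodes, which overlap. CD4 T barcodes stood at 10.6 CPM (4.28 to 21.9), and regulatory T barcodes held 1 UMI. Interferon gamma (Ifng) stood at 51.4 CPM (32.6 to 77.1) in NK, 28.7 CPM (19.5 to 40.7) in CD8 T and 4.56 CPM (0.941 to 13.3) in CD4 T barcodes, with NK and CD8 T overlapping again. No Ifng UMI was found in 130 regulatory T barcodes, which allows up to 4.35 CPM. Ifng was found in 12 NK and 13 CD8 T barcodes.

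**Figure D2:**
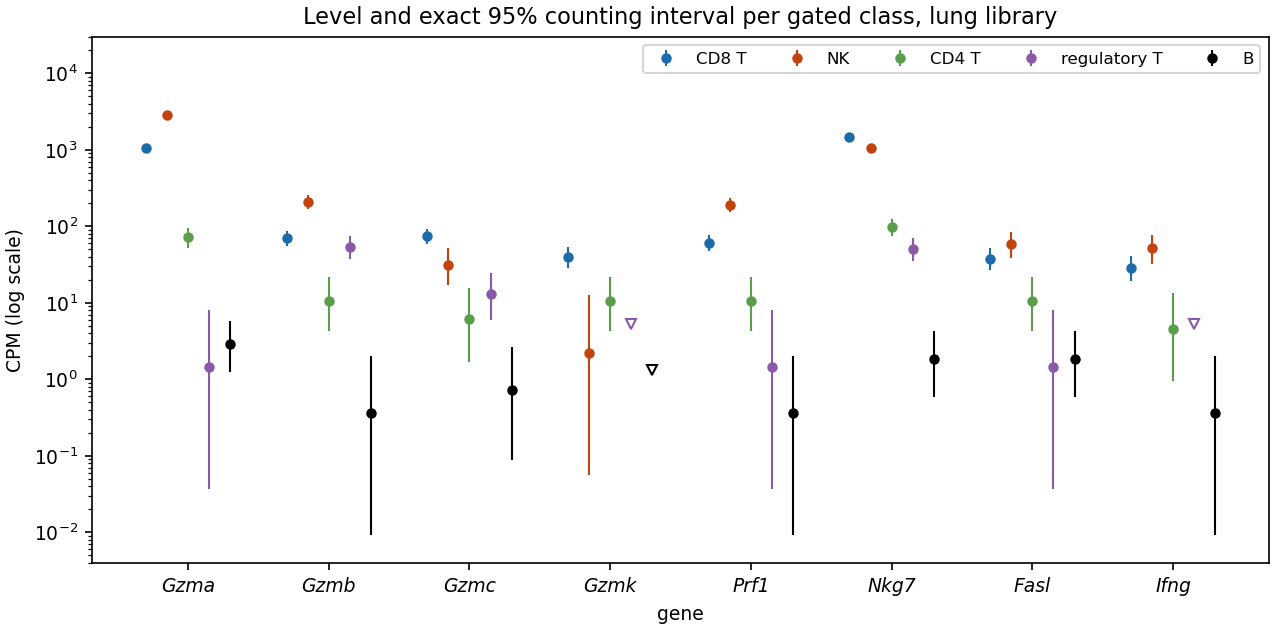
CPM on a log scale (points) with exact 95% counting intervals (bars) for each gene in 5 gated lung classes, where an open triangle marks the upper bound of a class without a UMI. NK and CD8 T intervals are apart for Gzma, Gzmb, Gzmc, Gzmk, Prf1 and Nkg7 and overlap for Fasl and Ifng, and B cells lie lowest or share the bottom with regulatory T barcodes.

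**Figure D3:**
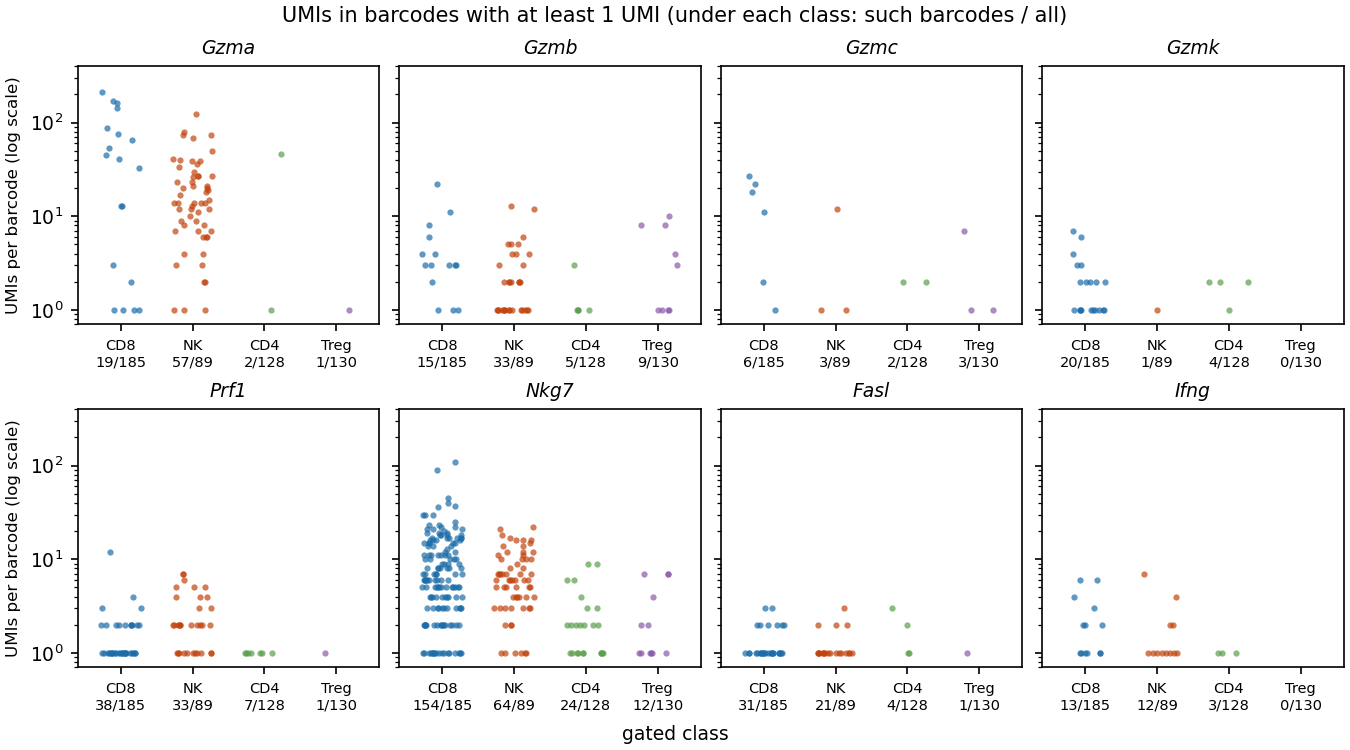
UMIs per barcode on a log scale, 1 point per barcode with at least 1 UMI, in the CD8 T, NK, CD4 T and regulatory T (Treg) gates, with the number of such barcodes over all barcodes below each column. Gzma forms a dense cloud in NK (57 of 89) and a sparse column reaching 215 UMIs in CD8 T (19 of 185), while Nkg7 fills both.

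Several of the genes were found together more often in NK than in T barcodes. At least 3 of the 8 were found in 50 of 89 NK barcodes (56.2%), 37 of 185 CD8 T (20%), 2 of 128 CD4 T (1.56%) and 1 of 130 regulatory T barcodes (0.769%). These counts were not thinned to 1 depth, and the median depths were 3019, 4493, 3616 and 3777 UMIs in the same order of classes. Of CD8 T barcodes 80 (43.2%) had exactly 1 of the genes and 79 (42.7%) had 2 or more. In the NK gate 32 of 33 Gzmb-positive barcodes also had Gzma (97%), and 25 of 56 Gzmb-negative barcodes did (44.6%). Prf1-positive NK barcodes gave the same counts, 32 of 33 with Gzma. In the CD8 T gate Gzma was found with Gzmb and Gzmk more than with perforin. There Gzmb was found in 8 of 19 Gzma-positive barcodes (42.1%, 20.3 to 66.5) and 7 of 166 Gzma-negative ones (4.22%, 1.71 to 8.5), with median depths of 4554 and 4475 UMIs. Gzmk was found in 8 of those 19 (42.1%) and in 12 of the 166 (7.23%). Prf1 was found in 4 of the 19 (21.1%) and 34 of the 166 (20.5%), nearly the same share. The Prf1 level was higher in the 19, at 159 CPM (94 to 251) against 49.6 CPM (36.6 to 65.7), but 12 of their 18 Prf1 UMIs came from 1 barcode. None of the 13 Ifng-positive CD8 T barcodes had a Gzma or Gzmb UMI (0 to 24.7%), against 19 (11%) and 15 (8.72%) of the 172 Ifng-negative ones, so no difference was detectable at this number of barcodes. Cells of 1 library are not replicates, so these shares are descriptions.

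**Figure D4:**
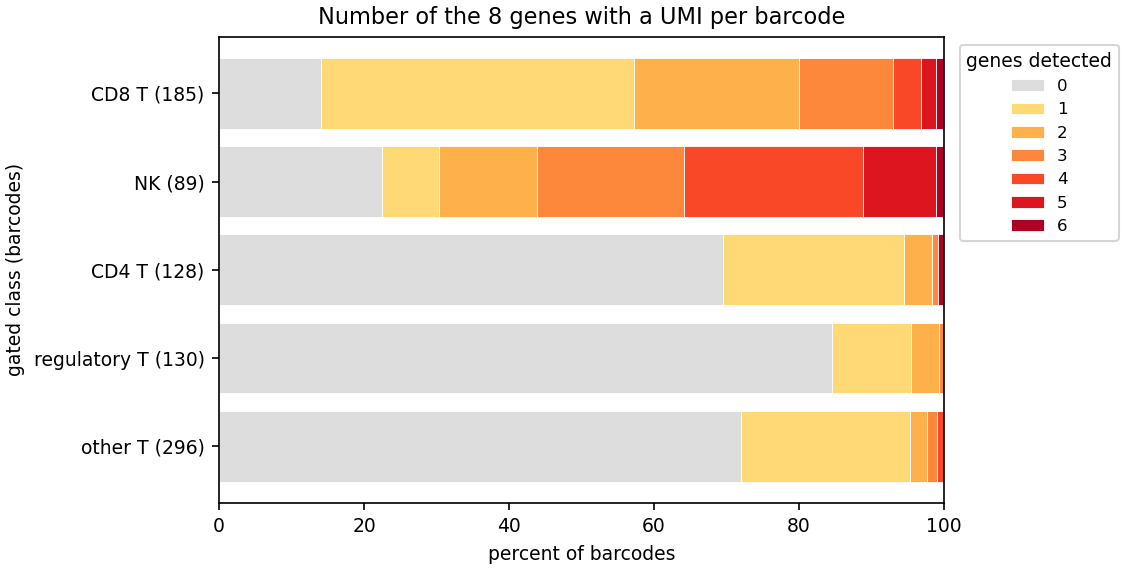
Percent of barcodes (x axis) by how many of the 8 genes had a UMI (colour) in 5 gated classes (rows, number of barcodes in brackets). In the NK gate 56.2% of barcodes have 3 or more of the genes against 20% in CD8 T, and 84.6% of regulatory T barcodes have none.

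The 20 NK barcodes without any of the 8 genes, set apart by these genes, are described beside the other 69. They were deeper, with a median of 5186 UMIs against 2835. The NK receptor genes Klra8 and Klra4 were at 0 there, against 549.8 and 479 CPM in the others, and Ncr1 stood at 15.4 against 301 CPM. Klrb1c stood at 103 CPM (62.8 to 159) against 443 CPM (365 to 533), and Klre1 at 10.3 against 451 CPM. The shares of barcodes with Klrb1c were 85% and 84.1%, but the gate asks for a UMI of Ncr1 or Klrb1c and so constrains them. The myeloid gene Lyz2 stood at 3298 CPM (3048 to 3564) against 1815 CPM (1653 to 1989). Another myeloid gene, C1qa, overlapped, at 437 CPM (349 to 540) against 399 CPM (325 to 485). Having no UMI of the 8 genes by definition, the 20 barcodes lower each NK level. In the other 69 Gzma stood at 5003 CPM, Gzmb at 368 CPM and Prf1 at 340.1 CPM, against 2827, 208 and 192 CPM in all 89. Whether the 20 are NK cells was not tested. When the 21 NK barcodes with B cell or myeloid markers were left out, Gzma stood at 4646 CPM, Gzmb at 338 CPM and Prf1 at 323 CPM in the remaining 68.

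Within CD8 T barcodes the granzyme UMIs lay almost wholly on the side with checkpoint receptors. Barcodes with a UMI of Pdcd1, Lag3, Havcr2 or Tigit, which encode inhibitory receptors, numbered 112, and 73 had none. Over all genes these sides held 763391 and 318083 UMIs. The first held 1121 of 1125 Gzma UMIs, 74 of 75 Gzmb UMIs, all 81 Gzmc UMIs and 41 of 43 Gzmk UMIs. Gzma stood at 1468 CPM (1384 to 1557) against 12.6 CPM (3.43 to 32.2), a ratio of 117 (45.5 to 429). Gzmb stood at 96.9 against 3.14 CPM from 1 UMI, a ratio of 30.8 (5.37 to 1234). Gzmc was at least 11.3-fold higher against a floor of 3 counts, and Gzmk 8.54-fold (2.22 to 72.9). The other 4 genes were present on both sides. Prf1 stood at 76 CPM (57.7 to 98.2) against 25.2 CPM (10.9 to 49.6), Nkg7 at 1810.3 CPM (1716 to 1908) against 714 CPM (624 to 813), Fasl at 45.8 CPM (31.9 to 63.8) against 18.9 CPM (6.92 to 41.1), and Ifng at 32.7 CPM (21.2 to 48.3) against 18.9 CPM (6.92 to 41.1). All 6 receptor-negative Ifng UMIs came from 1 of 73 barcodes (1.37%), against 12 of 112 barcodes (10.7%) with Ifng on the receptor-positive side.

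Calls rest on size alone and need a ratio of 4 or more, an interval of that ratio clear of 2, and 30 or more UMIs on the higher side. By that rule 4 of the 8 genes, the 4 granzymes, were higher in checkpoint-receptor-positive barcodes, beside 0.822% of the 9003 genes tested. The Gzmk call was lost when the barcode richest in these genes was left out. Without the barcodes richest in the gene itself, the ratio of Gzma was 186 (51.2 to 1534) and that of Gzmk 14.2 (2.39 to 578). The median log2 ratio was 2.34 over the 8 genes and -0.01 over all genes tested. The receptor-positive barcodes were deeper, with medians of 5096 and 3784 UMIs, and the part of depth in the gate was not tested. After thinning to 1000 UMIs Gzma was found in 13 of 112 (11.6%, 6.33 to 19) and 1 of 73 (1.37%, 0.0347 to 7.4) barcodes, which overlap. Gzmb was found in 7.14% (3.13 to 13.6) and 0% (0 to 4.93), and Gzmc in 4.46% (1.47 to 10.1) and 0% (0 to 4.93). Gzmk was found in 5.36% (1.99 to 11.3) and 2.74% (0.334 to 9.55), so the shares of these genes overlap too. Those of Nkg7 were apart, 67% (57.4 to 75.6) and 38.4% (27.2 to 50.5).

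**Figure D5:**
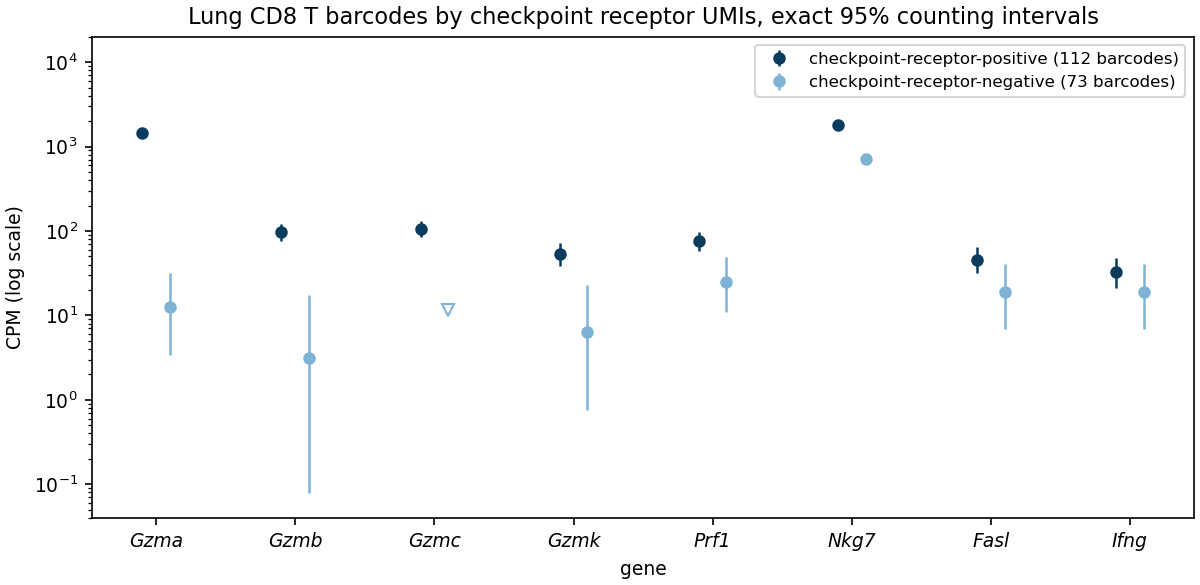
CPM on a log scale (points) with exact 95% counting intervals (bars) for each gene in lung CD8 T barcodes with (112) and without (73) a UMI of Pdcd1, Lag3, Havcr2 or Tigit, where the open triangle is the upper bound for Gzmc at 0 UMIs. The 4 granzymes are farthest apart, with Gzma at 1468 against 12.6 CPM. Ifng and Fasl intervals overlap, and the receptor-negative Ifng value comes from 1 barcode.

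Cycling CD8 T barcodes, with a UMI of Mki67 or Top2a, numbered 44 and had a median of 7499.5 UMIs, against 4238 in the others. Their Gzma, 1148 CPM (1043 to 1260) against 981 CPM (909 to 1057) in the other 141, differed little. Gzmc stood at 2.6 CPM from 1 UMI against 115 CPM (91 to 143), Gzmb at 31.2 CPM (16.1 to 54.6) against 90.4 CPM (69.4 to 116), and Prf1 at 26 CPM (12.5 to 47.9) against 80.3 CPM (60.7 to 104). The shares of positive barcodes overlapped. They were 2.27% (0.0575 to 12) against 3.55% (1.16 to 8.08) for Gzmc and 15.9% (6.64 to 30.1) against 22% (15.5 to 29.7) for Prf1. For Gzmb the share went the other way from the level, 9.09% (2.53 to 21.7) against 7.8% (3.96 to 13.5).

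The comparison of CD8 T with CD4 T barcodes asked which killing genes go with the CD8 gate. All 8 genes stood higher in CD8 T barcodes, and 5 were called, Gzma, Gzmb, Gzmc, Prf1 and Nkg7, beside 0.573% of 10116 genes called higher. Nkg7 was 15.3-fold (11.9 to 19.9), Gzma 14.6-fold (10.9 to 19.9), Gzmc 12.3-fold (4.63 to 46.3), Gzmb 6.51-fold (3.01 to 16.8) and Prf1 5.73-fold higher (2.63 to 14.8). Ifng, Gzmk and Fasl had ratios of 6.28 (1.96 to 32.1), 3.74 (1.67 to 9.84) and 3.56 (1.58 to 9.41) and were not called. The median log2 ratio was 2.68 over the 8 genes and 0.02 over all genes tested. The log2 ratio of Gzma was 3.86, and 9.11 without the barcode richest in these genes in each class, which in CD4 T is the one with 46 Gzma UMIs.

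NK barcodes set against CD4 T barcodes gave 4 calls, beside 1.39% of 9273 genes called higher. Gzma was 39.6-fold (29.6 to 54.1), Gzmb 19.5-fold (9.11 to 49.9), Prf1 18.1-fold (8.4 to 46.2) and Nkg7 10.8-fold higher (8.3 to 14.2). Ifng had a ratio of 11.3 (3.4 to 58.6) and Fasl of 5.46 (2.31 to 14.9), with too few UMIs for a call. Gzmk had too few UMIs over both classes to be tested. The median log2 ratio of the 8 genes was 3.46, beside 0.07 over all genes. Without the richest barcodes the log2 ratio of Gzma was 10.7 in place of 5.31.

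Between the killer classes themselves the differences were smaller. NK over CD8 T ratios were 3.15 (2.26 to 4.41) for Prf1, 3 (2.19 to 4.12) for Gzmb, 2.72 (2.51 to 2.95) for Gzma, 1.79 (0.998 to 3.18) for Ifng and 1.53 (0.9 to 2.57) for Fasl. Nkg7 was 1.42-fold (1.28 to 1.57) and Gzmc 2.39-fold (1.35 to 4.57) lower in NK barcodes. None of the 8 was called higher, and Gzmk alone was called lower, 17.8-fold (3.03 to 719) from 1 UMI, beside 1.17% of 10141 genes called lower. With mixed barcodes left out of both classes Prf1 passed the rule as higher, at 4.2-fold (2.94 to 6.04), and Gzmk was still called lower. The NK over CD8 T ratios of Ifng and Fasl were then 2.42 (1.27 to 4.57) and 1.89 (1.09 to 3.25), with intervals above 1. That of Nkg7 was 0.842 (0.755 to 0.938).

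Between regulatory T and CD4 T barcodes 1 gene was called in each direction, and neither call held without the richest barcodes. Gzmb was 5.04-fold higher (2.22 to 13.4), beside 0.297% of 9442 genes called higher. The shares of barcodes with a Gzmb UMI overlapped, 6.92% (3.21 to 12.7) of regulatory T and 3.91% (1.28 to 8.88) of CD4 T barcodes. In regulatory T barcodes its 37 UMIs came from 9 barcodes with 10, 8, 8, 4, 3, 1, 1, 1 and 1 UMIs. Those 9 also held Il2ra at 893 CPM and Ikzf2 at 1995 CPM, both genes typical of regulatory T cells, with Il2ra found in 7 and Ikzf2 in all 9. Without the barcode of 10 UMIs the log2 ratio was 1.88 in place of 2.33 and the call was lost. Gzma was lower, 1 against 47 UMIs, beside 0.402% of genes called lower, and that call was lost without the CD4 T barcode that held 46 of them. Prf1, Fasl, Ifng and Gzmk had too few UMIs over both classes to be tested. Nkg7 was 1.92-fold (1.25 to 2.98) lower.

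Other genes of the killing pathway, 37 in a list of granzymes, granule proteins, inhibitors, ligands, receptors, transcription factors and interferon gamma targets, were read in the same pairs. Of these, 29 could be tested in CD8 T over CD4 T barcodes and 3 were called, all higher, beside 0.573% of all genes. They were Cst7 (cystatin F, an inhibitor of granzyme-processing cathepsins) at 8.08-fold (5.18 to 13.3), and the chemokines Xcl1 at 8.5-fold (6.43 to 11.5) and Ccl5 at 7.09-fold (6.05 to 8.36). In CD4 T barcodes 42 of the 53 Xcl1 UMIs came from 1 barcode, and without the barcode richest in Xcl1 in each class the ratio was 30.2 (16.7 to 60.8). In NK over CD4 T barcodes 30 were tested and 6 called higher, beside 1.39% of all genes. Both granzyme inhibitors were among them, Serpinb9 at 10.8-fold (5.35 to 24.6) and Serpinb6b at 6.66-fold (3.77 to 12.5), with Ccl5 at 18.9-fold (16.2 to 22.3). The T-box factors Eomes and Tbx21 were called too, Tbx21 at 5.88-fold (2.99 to 12.6) and Eomes at 57.3-fold (9.7 to 2321) against 1 UMI. The sixth, the interferon gamma target Cxcl9, came with all 37 UMIs from 1 barcode of 17264 UMIs that had no UMI of the 8 genes, and was not called without it.

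In NK over CD8 T barcodes 30 were tested, of which 3 were called higher and 1 lower, beside 1.1% and 1.17% of all genes. Serpinb9 at 5.32-fold (3.4 to 8.48), Eomes at 4.96-fold (2.8 to 9.09) and Cxcl9 from that 1 barcode were higher, and the death ligand Tnfsf10 was lower, 4.73-fold (2.19 to 12.1) from 7 NK UMIs, 4 of them in 1 barcode. Without the richest barcodes its log2 ratio was -3.31 in place of -2.24. Between regulatory and CD4 T barcodes 28 were tested and Xcl1 was called lower, 0 against 53 UMIs, at least 18.5-fold, beside 0.402% of all genes. The call was lost without the CD4 T barcode that held 42 of them, which left 11 UMIs. In receptor-positive over receptor-negative CD8 T barcodes 29 were tested and 4 called higher, beside 0.822% of all genes. Ccl4 was 7.28-fold (5.01 to 11), Tnfsf10 6.25-fold (2.56 to 19.8), Xcl1 5.76-fold (4.32 to 7.84) and Cst7 4.05-fold higher (2.7 to 6.33). Of the 50 Xcl1 UMIs on the receptor-negative side 45 came from 1 barcode, and without the richest barcodes the ratio was 41.1 (17.5 to 127). None of the other 6 granzymes on the list had the 10 UMIs needed for testing in any pair.

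For the receiving side, Fas stood at 110.1 CPM in neutrophils, 43.5 CPM in CD8 T, 62.4 CPM in regulatory T, 24.7 CPM in mononuclear phagocyte and 20.1 CPM in NK barcodes. The interferon gamma receptor gene Ifngr1 stood at 784 CPM in regulatory T, 516 CPM in NK, 349.5 CPM in CD8 T, 328 CPM in CD4 T and 169.9 CPM in mononuclear phagocyte barcodes. Ifngr1 was thus highest in regulatory T barcodes among these classes, where Ifng had no UMI.

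Likeness of pattern was measured as Pearson's r of log2(CPM + 1) over the 12 gated classes among 11999 genes with at least 100 UMIs. The classes share 1 library and differ in depth, so r is a description. Gzma was most like Prf1 (0.957), Fasl (0.953) and Xcl1 (0.909). Prf1 was most like Gzma, Fasl (0.951) and the NK receptor gene Klre1 (0.927), and Fasl most like Xcl1 (0.959) and the same granule genes. Nkg7 was most like Ctsw (0.962), which encodes a cathepsin of cytotoxic cells, Ms4a4b (0.961) and Gm33104 (0.947). Gzmb was most like Gm33104 (0.972), Zfp51 (0.951) and Sytl3 (0.95), and Gzmc most like Nosip (0.917), Gzmb (0.895) and Trir (0.893). Gzmk and Ifng had under 100 UMIs and were not compared.

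In B, myeloid and epithelial barcodes the share with any of the 8 genes, not thinned to 1 depth, was low and alike. Any of the 8 genes was found in 18 of 755 B barcodes (2.38%, 1.42 to 3.74), 41 of 2222 mononuclear phagocytes (1.85%, 1.33 to 2.49), 29 of 1173 neutrophils (2.47%, 1.66 to 3.53) and 5 of 194 epithelial barcodes (2.58%, 0.842 to 5.91). Median depths were 2342, 4896, 2215 and 1125 UMIs. The summed levels were 8.38 CPM (5.31 to 12.6) in B cells and 6.75 CPM (5.54 to 8.16) in mononuclear phagocytes. They were 16.4 CPM (12.2 to 21.6) in neutrophils and 6.6 CPM (2.85 to 13) in epithelial barcodes. Among these classes only neutrophils and mononuclear phagocytes had intervals apart from each other. Of the 50 UMIs in neutrophils 17 came from 2 barcodes. Of the 107 UMIs in mononuclear phagocytes 51 came from 2 barcodes, and 34 of the 41 positive barcodes had 1 UMI. Positive phagocytes held 9 lymphoid genes (Cd3d, Cd3g, Trac, Cd2, Cd28, Cd8b1, Klre1, Klra8 and Klra4) at 141 CPM in sum, against 15.5 CPM in the others. In neutrophils these sums were 350.3 and 28.6 CPM, and in B cells 81.1 and 82.4 CPM. In all B barcodes Cd2 alone stood at 60.5 CPM. Most positive myeloid barcodes had none of the 9 genes. A UMI of them was found in 7 of 41 positive phagocytes (17.1%, against 6.33% of the others). In neutrophils it was found in 7 of 29 (24.1%, against 3.85%). The part of lymphocyte RNA or of mixed barcodes in the myeloid signal was not tested.

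Nkg7 was the highest of the 8 in neutrophils, 10.2 CPM (6.9 to 14.4) from 31 UMIs in 15 barcodes, against 1.82 CPM (0.592 to 4.25) in B cells. Thinned to 1000 UMIs, it was found in 0.813% of 1107 neutrophils (0.372 to 1.54) and 0.139% of 720 B cells (0.00352 to 0.771), which overlap. The 1 neutrophil richest in the 8 genes held 11 of their 50 UMIs. Ifng had no UMI in 2222 mononuclear phagocytes or in 1173 neutrophils, which allows up to 0.189 and 0.983 CPM. Gzma over Nkg7 UMIs gave 2.69 (2.42 to 3) in NK, 0.699 (0.647 to 0.755) in CD8 T, 1.22 (0.769 to 1.95) in mononuclear phagocyte, 0.258 (0.102 to 0.574) in neutrophil and 1.6 (0.462 to 6.22) in B barcodes. The 2777 barcodes that passed no gate held 295 UMIs of the 8 genes in 95 barcodes, and 55 of these 95 had a UMI of the lymphoid genes, so barcodes with lymphoid genes remain outside the gates.

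The muscle library had few lymphocytes. The gates found 4 CD8 T, 2 NK and 3 other T barcodes and no CD4 or regulatory T barcode among 2243 kept. The 4 CD8 T barcodes held 23 Nkg7 UMIs and 1 each of Gzmk, Prf1, Fasl and Ifng. Gzma, Gzmb and Gzmc had none there, which allows up to 115 CPM each and is above the lung CD8 T level of Gzmb and Gzmc. The 2 NK barcodes held none of the 8 genes and 287 Lyz2 and 57 C1qa UMIs, genes of macrophages, so they go against the name of their gate. No level was compared between the tissues.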

How the data were processed

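Counts were whole UMIs per gene and barcode, made by the authors with Cell Ranger 7.0.1 on build GRCm39 per the submitters' processing notes, and deposited unnormalised. The annotation and the cell calling are not given in the sources used here. The lung library held 34751225 UMIs over 8481 barcodes and the muscle library 14056163 over 5547. Each interval holds counting error only. It does not cover the spread between barcodes, so it is too narrow where few barcodes hold most UMIs of a gene. Gates, pairs and gene lists were chosen with earlier results of these data known. The genes named are the 8, pathway genes called in a pair, and the 3 genes most like each member. CPM is the summed count of a gene over all counts of a class. Poisson, Clopper-Pearson and conditional binomial intervals are exact (Python 3, numpy, scipy). Genes of the gates, and genes under 10 UMIs over both classes, were not tested for a call. The call rule was also run on simulated Poisson counts. These lack the clumping of UMIs in single barcodes, so that run does not cover genes held by few barcodes. Doublets were kept, and 537 lung barcodes (6.55%) with the most simulated doublets among 30 neighbours were left out as an alternative. Tcrg-C2 and Tcrg-C4 were not found by name. Other alternatives changed the filters, gates, totals, scaling and call rule. Promoters are from RefSeq, and all 8 genes matched by symbol. One split of the CD8 T barcodes is not reported here.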

Additional observations from a re-analysis of the deposited data

How the results depend on the processing

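No paired analysis was possible because each tissue has 1 library. Of 165 recomputed log2 ratios of 15 called gene and pair combinations, none changed direction and 160 kept their call. The 5 that lost it were Gzma in regulatory over CD4 T barcodes in 3 settings, with log2 ratios of -0.23 (doublet-like barcodes removed), -0.36 (B cell or myeloid markers left out) and -0.07 (richest barcode left out), and, without the richest barcode, Gzmb in the same pair and Gzmk between the CD8 T sets at 1.88 and 2.93. Calls in NK over CD4 T barcodes numbered 4 in each setting tried. Leaving out doublet-like barcodes gave a CD8 T sum of 3717 CPM, and Gzmc was then called lower in NK over CD8 T barcodes. Leaving out barcodes with B cell or myeloid markers gave 4021 CPM in CD8 T and 7242 CPM in NK barcodes, with 1 gene called higher in NK over CD8 T. Totals without mitochondrial genes and Rn18s gave 3064 and 4784 CPM. A call at a ratio of 2 gave 8 genes in CD8 T over CD4 T, 3 in NK over CD8 T and 7 between the CD8 T sets. Settings added after the data were seen left out the barcode richest in the 8 genes of each class, giving 2629 CPM in CD8 T, 4118 in NK and 154 in CD4 T barcodes and 0 genes called higher in regulatory over CD4 T, or required Cd4 and Foxp3 at 0, for 3128 CPM in CD8 T. The cause of these shifts was not tested beyond the barcodes left out. Leaving out, in each class, the barcode richest in the gene itself, also added later, kept 14 of 16 calls of the 8 genes and 15 of 18 of pathway genes. Gzma and Gzmb in regulatory over CD4 T barcodes, Cxcl9 in both NK pairs and Xcl1 in regulatory over CD4 T lost theirs. Depth limits Gzmk, Ifng, Fasl and Gzmc most, with 64, 66, 114 and 122 lung UMIs in all.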

Other observations

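Gzme, a granzyme of the chromosome 14 cluster outside the 8 genes, was chosen here after its values were seen. It had no UMI in 185 CD8 T or 89 NK barcodes, which allows up to 2.77 and 6.7 CPM. It had 63 UMIs in 24 of 2222 mononuclear phagocyte barcodes, 3.98 CPM (3.06 to 5.09), and 25 UMIs in 12 of 194 epithelial barcodes, 20.6 CPM (13.3 to 30.4), a share of 6.19%. The mononuclear phagocyte gate also held 4 epithelial markers at 1529 CPM in sum, against 6570.1 CPM in the epithelial gate, and Epcam in 187 barcodes. The part of mixed epithelial barcodes in its Gzme was not tested. Lung B cells held 1 Gzme UMI in 755 barcodes. Gzmm had 19 UMIs in 19 mononuclear phagocyte barcodes (1.2 CPM, 0.722 to 1.87) and 7 UMIs in 7 CD8 T barcodes (6.47 CPM, 2.6 to 13.3).

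The 19 Gzma-positive CD8 T barcodes held Tcf7, which encodes a transcription factor of naive and memory T cells, at 88.1 CPM, and the 166 others at 243 CPM. Ikzf2 stood at 608 and 314 CPM, Havcr2 at 106 and 38.2 CPM, and the NK receptor gene Klre1 at 176 and 28.9 CPM in these sets. Klra8, Klra4, Ncr1 and Klrb1c had no UMI in the 19. Cd8b1 was found in 84.2% and 81.3% of the barcodes, and Cd3d in 89.5% and 89.8%.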
